A study of Mus musculus with 18 samples.

Results

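The Kelch-like and F-box genes encode the adaptors that tell cullin-RING ubiquitin ligases which protein to mark. They were taken from a gene table of mouse round spermatids as all symbols that begin with Klhl, Fbxo, Fbxl or Fbxw followed by a digit, without pseudogenes named -ps. The rule gave 115 of the 54232 genes in the table: 36 Klhl, 36 Fbxo, 19 Fbxl and 24 Fbxw genes. Of these, 113 were annotated as protein coding. The other two were the antisense transcript Fbxl12os and Fbxw23, which was annotated as a transcribed pseudogene. No expression value was used to choose them.

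The study asked how the loss of GRTH (DDX25), a testis-specific RNA helicase, or of its phosphorylated form altered the RNA of round spermatids, the haploid cells that follow meiosis. Round spermatids were prepared from testes of mice aged 75 to 85 days by enzymatic digestion and sedimentation in an albumin gradient, and 6 libraries each were sequenced from wild-type (WT), GRTH knock-out (KO) and GRTH knock-in (KI) mice. KO mice lack GRTH. KI mice carry the human GRTH gene with an arginine-to-histidine missense mutation and lack the phosphorylated protein, and in both mutants spermatids arrest before elongation. Whether libraries of a genotype came from separate animals was not stated, so the p-values measure only the spread between these libraries, which may be technical.

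Total counts ran from 18766971 to 26776555 per library. Ddx25 measured 538 to 607 CPM (counts scaled to library size) in WT, 47.7 to 90.9 CPM in KO and below 0.52 CPM in 5 KI libraries, but 56.9 CPM in the library labelled KI 4, which lies within the KO range. KI 4 was also closer to KO 2 than any other pair of libraries was to each other, and the KI calls are therefore given with and without it. Several pairs within a genotype were close as well, and counts of calls are also given with these summed. The 8 markers of late spermatids, some of which the study had picked from these libraries, summed to 13262 to 18379 CPM in WT, 1587 to 3762 CPM in KO and 2021 to 3203 CPM in KI, and all 8 were lower in both mutants. The 7 Leydig cell markers summed to 10.8 to 22.4 CPM in WT, 34.2 to 58.9 CPM in KO and 14.7 to 74.8 CPM in KI, and all 7 were higher in both mutants (6 in KI without KI 4). The 9 round spermatid markers summed to 899.7 to 1467 CPM in WT, 574 to 1338 CPM in KO and 616 to 875 CPM in KI. Of these, 2 were lower in KO and 5 in KI. Of 9 spermatocyte markers, 3 were higher and 2 lower in KO, and 2 were higher and 1 lower in KI (1 and 1 without KI 4). Of 8 spermatogonium markers, 2 were higher in KO and 1 in KI (0 without KI 4), and of the Sertoli cell markers 1 was lower in each. The markers of peritubular, endothelial and red blood cells and of macrophages summed to at most 27.8 CPM per list in any library. Among them, the smooth muscle gene Cnn1 was higher in both mutants (log2 fold change 2.43 and 1.76), Acta2 higher in KO (0.87) and Myh11 lower in both (-1.54 and -1.73), while Vwf (0.85 and 0.82) and Csf1r (0.72 and 1.24) were higher and C1qb (-1.20 and -0.96) lower in both. Cnn1 (0.0457 to 0.276 CPM in WT) and the Leydig marker Lhcgr (0 to 0.194 CPM in WT) were scarce. Both were tested only because of their mutant libraries, as described for scarce members below. The endothelial sum had a median of 14.5 CPM in WT, while it was 24.3 CPM in KO and 20.2 CPM in KI. Most of that sum was Vwf, with means of 10.8 CPM in WT, 19.6 CPM in KO and 19.2 CPM in KI. The other endothelial markers, Pecam1, Cdh5 and Kdr, were not called in either mutant.

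A cullin-RING ligase is built on a cullin scaffold that holds a RING protein, which recruits the ubiquitin-charged enzyme, at its far end. Kelch-like proteins join the scaffold CUL3 directly through their BTB domain and hold the substrate with Kelch repeats. F-box proteins join CUL1 through the linker SKP1, and their letters name the part that holds the substrate: WD40 repeats in Fbxw, leucine-rich repeats in Fbxl, and other domains in Fbxo proteins. In the testis these ligases take part in meiosis, in the turnover of proteins as spermatids are remodelled and in the building of the sperm tail.

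The adaptor genes differed widely in their level in WT. Levels between genes are given per length, as RPKM (CPM per kilobase of exon). In WT, 16 members were above 10 RPKM, 44 lay between 1 and 10 RPKM and 55 were under 1 RPKM, with a median of 1.25 RPKM over all 115. Median WT levels were 3.58 RPKM for Fbxo, 0.595 RPKM for Klhl, 0.523 RPKM for Fbxl and 0.361 RPKM for Fbxw genes. One gene, Klhl10, stood above the rest at 192 RPKM. KLHL10 forms a CUL3 ligase of spermatids and is needed for male fertility. Fbxw5, whose product is known for its part in centriole duplication, followed at 71.6 RPKM, then Fbxo30 at 60, Fbxo36 at 44.4, Fbxw10 at 42.0, Fbxo39 at 31.3, Fbxl13 at 28.5, Fbxo34 at 24.6, Fbxo38 at 23.9 and Fbxo24 at 23.5 RPKM. In this order only Klhl10 against Fbxw5 and Fbxo30 against Fbxo36 had WT libraries that did not overlap. The order among the other neighbours was within the spread of the libraries. Exons of Fbxw10 overlap those of Trim16, and exons of Fbxo24 those of Pcolce, on the same strand. Reads of the shared stretch may thus be lost or misassigned, so their levels are less certain. The same holds for Klhl13 with Gm14523 and Fbxl20 with Gm11632, both described below.

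**Figure D1:**
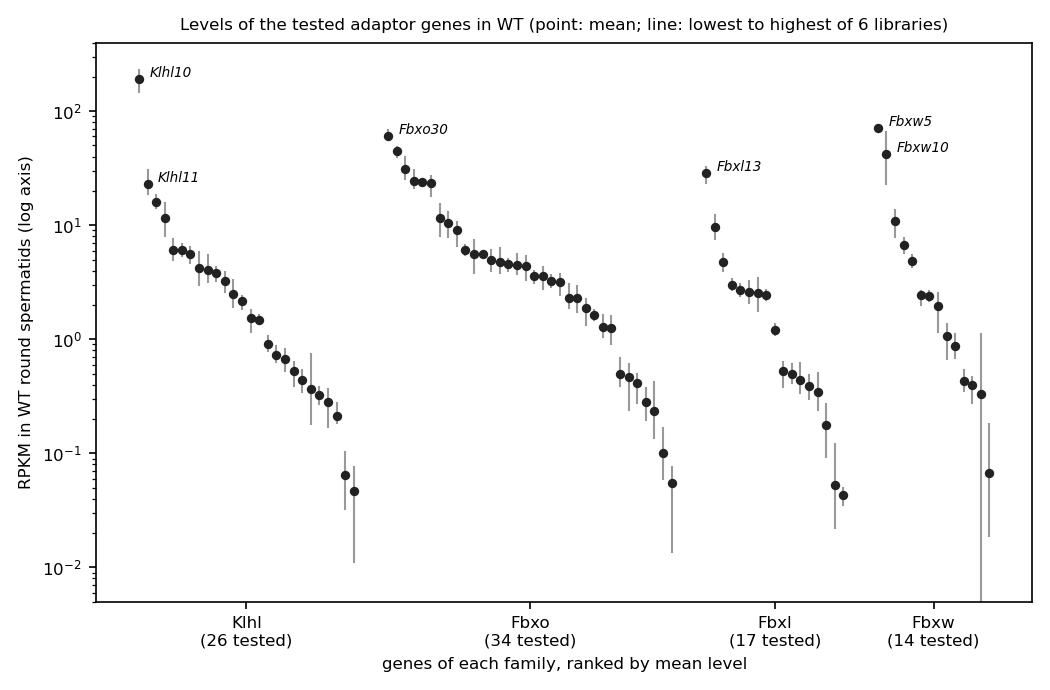
Levels of the 91 tested adaptor genes in WT, in RPKM on a log axis, ranked within each family. Points are means and lines run from the lowest to the highest of 6 libraries (the line of Fbxw15 leaves the axis because 1 library was at 0); Klhl10 at 192 RPKM lies above all others.

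A filter on low counts left 91 members for testing: 26 Klhl, 34 Fbxo, 17 Fbxl and 14 Fbxw genes. The other 24 reached at most 20 counts in any library. Of these, 9 had at most 3 counts in each of the 18 libraries, a floor that corresponds to 0.112 to 0.16 CPM. They were 8 Fbxw genes and Klhl34, which had 0 counts throughout.

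In KO against WT, 21 of the 91 tested members were higher and 9 were lower (edgeR quasi-likelihood test, adjusted p under 0.1 over all genes tested, the method behind each adjusted p given here). Over all genes tested, 16.4% were higher and 13.5% lower in this comparison. In KI, 19 members were higher and 10 were lower, against 16.1% and 15.4% of all genes. Without KI 4, 17 of 92 members were higher and 13 lower in KI, where 14.5% and 15.8% of all genes were. The members called in KO and KI make up 33.0% and 31.9% of those tested, and both shares were close to that of all genes under this filter (29.9% and 31.6%). With DESeq2, which tested 114 members, 28.9% of members against 14.8% of genes were called in KO and 26.3% against 16.3% in KI. With edgeR and no filter on low counts the shares were 22.8% against 12.8% in KO and 20.2% against 13.9% in KI. Both of these settings took in 43982 genes and 114 members, where the filter kept 21058 genes and 91 members. Their base thus held a larger part of scarce genes than the members did, so these shares do not compare genes of like level. The size of the changes was ordinary too: the median absolute log2 fold change was 0.26 over the members in both mutants, and 0.28 in KO and 0.29 in KI over all genes. The signed median was 0.06 in KO and 0.14 in KI over the members, beside 0.03 and 0.05 over all genes.

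None of the members changed by more than 1 log2 unit when that size itself was tested (edgeR glmTreat, lowest adjusted p 0.307 in KO and 0.254 in KI), where 1.73% of all genes in KO and 1.95% in KI did. DESeq2 also called 0 members past this size in either mutant. At an unadjusted p under 0.05, 4 members passed in KO and the same 4 in KI by edgeR: Fbxl21, Fbxw20, Klhl13 and Klhl28. Leaving out the library WT 4 brought Fbxl21 past 1 log2 unit in KO (log2 fold change 2.35, adjusted p = 0.0666) and KI (2.44, adjusted p = 0.0357), and Fbxw20 in KO (2.71, adjusted p = 0.0394). WT 4 was the highest WT library of Fbxl21 (0.582 CPM) and of Fbxw20 (0.436 CPM), so leaving it out had to raise these fold changes.

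By family, calls in KO were 6 higher and 4 lower of 26 Klhl genes, 7 and 3 of 34 Fbxo genes, 5 and 1 of 17 Fbxl genes, and 3 and 1 of 14 Fbxw genes. In KI they were 7 and 4 for Klhl, 3 and 3 for Fbxo, 6 and 2 for Fbxl, and 3 and 1 for Fbxw genes (without KI 4, 6 and 5, 4 and 5, 4 and 2, and 3 and 1). The risers were genes of low to moderate level, with a median of 2.19 and a highest WT level of 6.70 RPKM in KO. Members not called in KO had a similar median WT level, 2.45 RPKM, and a highest of 71.6 RPKM. The fallers included the most abundant member, and their median WT level was 4.04 RPKM. In 10 members of those higher in KO, and 5 of those lower, the KO libraries did not overlap the WT libraries at all (6.62% and 6.44% of all genes in each direction), and the same held for 9 and 3 members in KI (5.97% and 7.91%). Both mutants were compared to the same 6 WT libraries. With the close libraries summed and KI 4 left out, 17 of 98 members were called in KO, where 15.6% of all genes were, and 13 of 98 in KI, where 12.2% of all genes were.

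**Figure D2:**
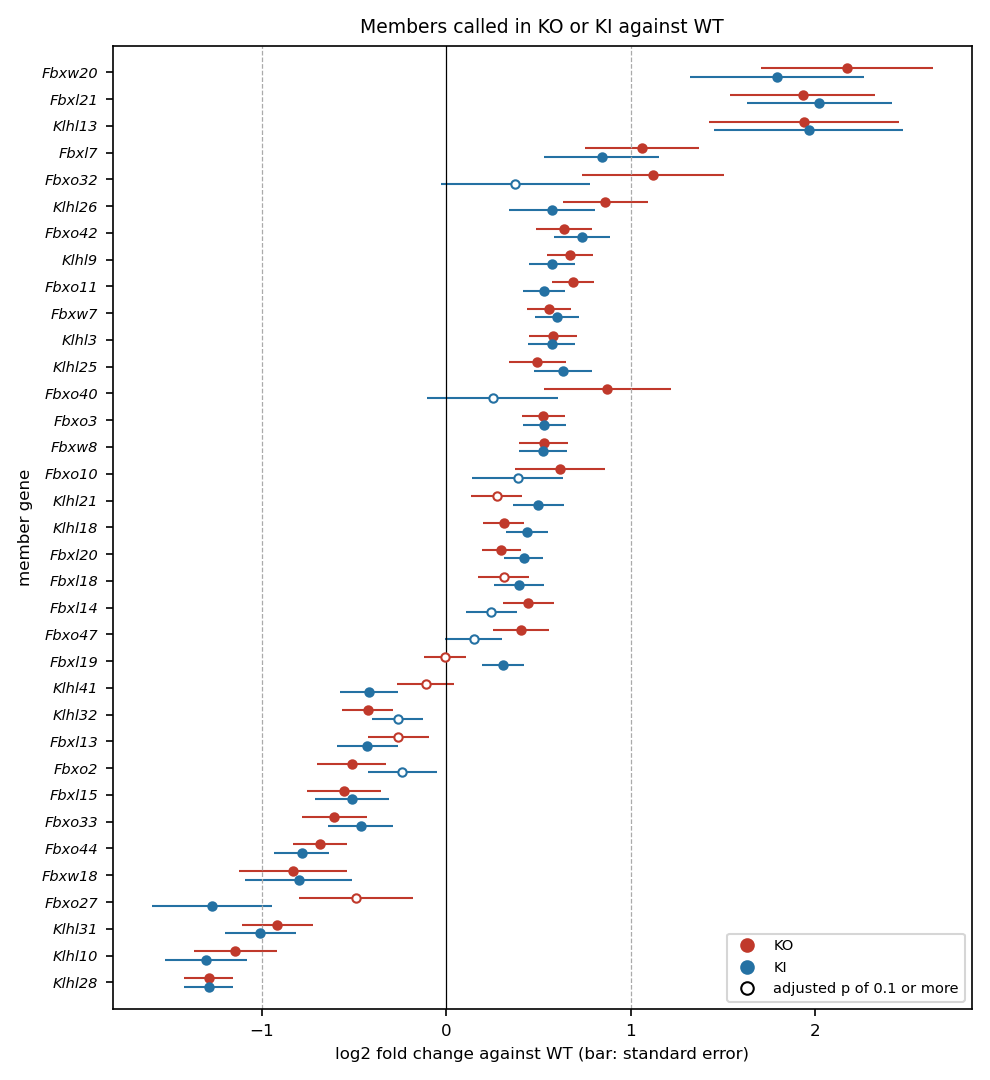
Log2 fold changes against WT, with standard errors, of members called in KO or KI, ordered by the mean of both. Filled points passed the test (adjusted p under 0.1) and dashed lines mark 1 log2 unit; Klhl28 lies at -1.29 in both mutants and Fbxw20 at 2.17 in KO.

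Among the Kelch-like adaptors that fell, Klhl10 (ENSMUSG00000001558, GRCm38 chr11:100441917-100457022, plus strand) carried by far the most RNA. It measured 320 at the lowest, 423 at the median and 495 CPM at the highest in WT, 79.0, 196 and 282 CPM in KO, and 115, 176 and 206 CPM in KI. Every mutant library lay below every WT library, and the KO libraries were the most scattered. The log2 fold change was -1.14 ± 0.22 (SE) in KO (adjusted p = 0.000737) and -1.30 ± 0.22 in KI (adjusted p = 0.000183), and it was -1.28 in KI without KI 4 (adjusted p = 0.00063). With 6951 to 12317 counts per WT library, depth did not limit this value. In bulk RNA, fewer cells of a kind and less RNA per cell cannot be told apart, here as for each gene below. Klhl10 made up 23.9% ± 2.63 (SD, n = 6) of the summed RPKM of all members in WT, but 12.3% ± 3.85 in KO and 11.4% ± 1.64 in KI. The sum of the other members was 608 ± 27.4 RPKM in WT, 604 ± 40.9 in KO and 602 ± 54.9 in KI, differences smaller than the spread between libraries.

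Klhl11 lies 5591 bases from Klhl10 on the opposite strand and did not pass the test. Its levels were 54.7 ± 11.8 CPM (SD, n = 6) in WT, 55.8 ± 6.91 in KO and 53.4 ± 8.89 in KI, with adjusted p of 0.916 and 0.896. The neighbouring Kelch-like genes thus had different values in the same libraries, one lower in both mutants and the other with overlapping libraries.

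Klhl28 (chr12:64938833-64965534, minus strand) had the smallest adjusted p of all members in both mutants. Its lowest, median and highest levels were 22.9, 27.0 and 39.9 CPM in WT, 9.65, 12.2 and 14.4 CPM in KO, and 10.7, 12.1 and 13.1 CPM in KI. The mutant libraries clustered tightly and none reached the lowest WT library. The log2 fold change was -1.29 ± 0.13 in both mutants, with adjusted p = 3.19e-07 in KO and 2.58e-07 in KI (8.59e-07 without KI 4). Klhl31, best known from muscle, fell from 2.11 ± 0.26 CPM in WT to 1.12 ± 0.212 in KO and 1.05 ± 0.263 in KI (log2 fold change -0.91 ± 0.19 and -1.01 ± 0.19, adjusted p = 0.00115 and 0.000424, the latter 0.00118 without KI 4). Its mutant libraries also lay wholly below those of WT. Klhl32 was called in KO alone, from 7.09 ± 0.901 to 5.27 ± 0.678 CPM (log2 fold change -0.43 ± 0.14, adjusted p = 0.0281, but 0.142 with the close libraries summed), and measured 5.90 ± 0.897 CPM in KI (adjusted p = 0.179). The difference between the mutants was not significant for Klhl32 or any other member.

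**Figure D3:**
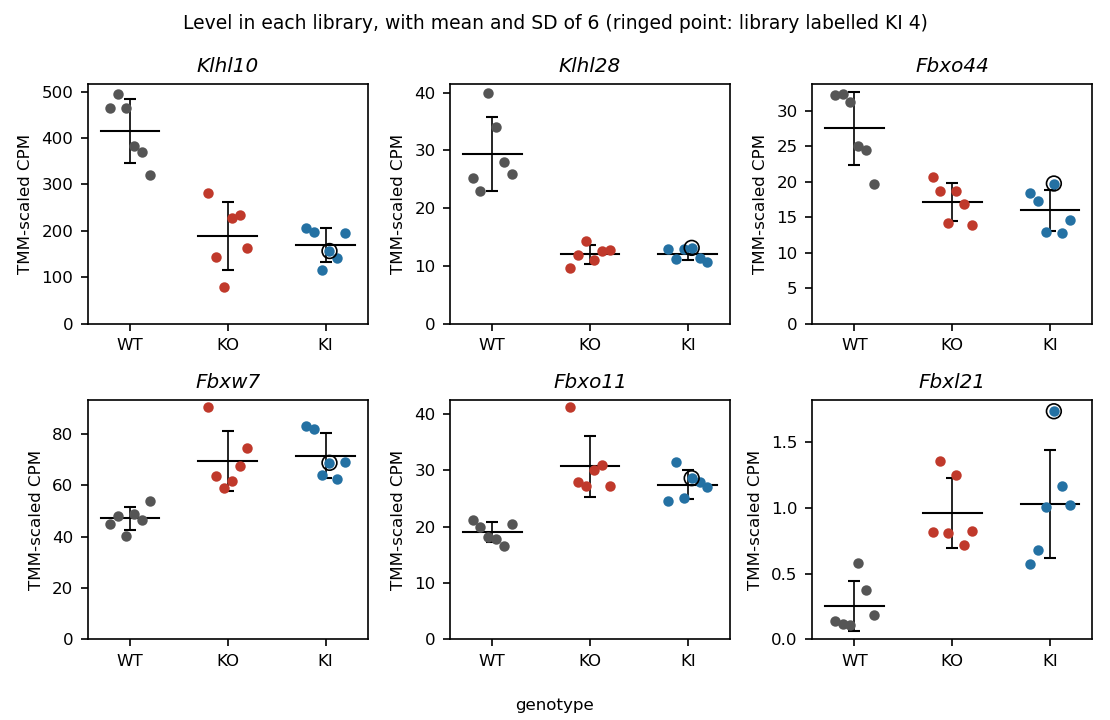
TMM-scaled CPM of 6 members in each library, with the mean and SD of 6; the ringed point is the library labelled KI 4. Klhl10 and Klhl28 in both mutants lie below every WT library, Fbxw7 and Fbxo11 lie above every WT library, and in Fbxo44 and Fbxl21 a mutant library reaches the WT range.

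The promoters of 4 members that changed in both mutants are shown so that the reader can compare genes that fell with genes that rose. They are those of Klhl10 and Klhl28, which fell, and of Klhl9 and Fbxo42, which rose, each with a single RefSeq window of 250 bases before and 50 bases after the gene start (GRCm38.p6, 5′ to 3′ on the strand of the gene). Capitals mark TGACG, the core of the cAMP response element bound by CREB and CREM, and GGGCGG, the GC box bound by Sp1, on either strand. The motifs can overlap by 1 letter.
Klhl10, chr11:100441674-100441973, plus strand: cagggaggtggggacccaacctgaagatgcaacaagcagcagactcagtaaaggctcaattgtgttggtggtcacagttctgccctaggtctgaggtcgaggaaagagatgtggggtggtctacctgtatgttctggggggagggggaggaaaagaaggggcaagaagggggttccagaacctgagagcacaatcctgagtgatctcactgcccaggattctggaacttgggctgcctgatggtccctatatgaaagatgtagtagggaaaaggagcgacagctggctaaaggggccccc
Klhl28, chr12:64965487-64965786, minus strand: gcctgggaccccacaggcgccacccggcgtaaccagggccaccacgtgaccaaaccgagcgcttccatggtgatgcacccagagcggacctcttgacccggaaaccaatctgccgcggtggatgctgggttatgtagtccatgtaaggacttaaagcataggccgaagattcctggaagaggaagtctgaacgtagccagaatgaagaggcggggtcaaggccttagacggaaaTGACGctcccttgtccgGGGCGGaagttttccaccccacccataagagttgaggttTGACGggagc
Klhl9, chr4:88722459-88722758, minus strand: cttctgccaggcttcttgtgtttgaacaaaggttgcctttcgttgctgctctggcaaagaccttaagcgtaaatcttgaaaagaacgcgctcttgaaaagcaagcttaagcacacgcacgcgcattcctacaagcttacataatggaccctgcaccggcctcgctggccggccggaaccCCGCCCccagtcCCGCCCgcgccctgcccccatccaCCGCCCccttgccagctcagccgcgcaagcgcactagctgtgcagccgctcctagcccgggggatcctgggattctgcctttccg
Fbxo42, chr4:141147672-141147971, plus strand: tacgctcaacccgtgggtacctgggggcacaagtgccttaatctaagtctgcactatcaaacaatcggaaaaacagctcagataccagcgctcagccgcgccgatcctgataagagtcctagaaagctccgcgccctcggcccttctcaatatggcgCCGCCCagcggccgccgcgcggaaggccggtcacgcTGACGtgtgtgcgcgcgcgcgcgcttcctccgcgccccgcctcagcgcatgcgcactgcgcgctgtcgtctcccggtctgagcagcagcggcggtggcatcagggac

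Klhl10 held neither motif in this window. With the gene start at 0, Klhl28 held TGACG at -16 and 40 and GGGCGG at 1, Klhl9 held GGGCGG at -71, -59 and -35, and Fbxo42 held TGACG at -57 and GGGCGG at -93. Windows were found for 89 of the 115 members, 120 in all. TGACG occurred in 29.2% of these and in 20.8% of all 32851 RefSeq windows of the same length, GGGCGG in 56.7% and 35.7%, and the full palindrome TGACGTCA in 1.67% and 1.79%. Of the members higher in both mutants, 13 had a window (21 windows in all), and 6 of these genes held TGACG and 11 GGGCGG in any window. Of the 7 members lower in both (10 windows), 2 held TGACG and 5 GGGCGG in any window. These are counts of genes, so the shares of windows above are no like base for them. A share by gene over all genes was not taken. A match describes the letters and is not a bound site.

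Fbxo44 was lower in both mutants, and its relatives of the same domain were called in 1 mutant or in none. Fbxo2, Fbxo6, Fbxo17, Fbxo27 and Fbxo44 share the FBA domain, which binds sugar chains in some of them and serves in the clearance of misfolded glycoproteins, and they were grouped here after their values were seen. Fbxo44 measured 19.7, 28.2 and 32.4 CPM at the lowest, median and highest in WT, 13.9, 17.8 and 20.7 CPM in KO, and 12.9, 16 and 19.8 CPM in KI. Apart from the lowest WT library, which lay within the mutant ranges, WT was separate from both mutants, which overlapped each other. The log2 fold change was -0.68 ± 0.15 in KO (adjusted p = 0.00163) and -0.78 ± 0.15 in KI (adjusted p = 0.000413, and 0.000311 without KI 4). Fbxo2 lies 138 bases from Fbxo44 and fell in KO from 7.77 ± 0.709 to 5.45 ± 0.882 CPM with no overlap (log2 fold change -0.51 ± 0.19, adjusted p = 0.0520), while KI measured 6.6 ± 2.21 CPM (adjusted p = 0.396). The call ended without KO 6 (adjusted p = 0.116) and with the close libraries summed (0.201). Fbxo6 lies 659 bases on the other side of Fbxo44 and did not pass the test, at 10.4 ± 2.07, 11 ± 1.55 and 9.08 ± 2.20 CPM in WT, KO and KI. The 3 neighbours on chromosome 4 therefore had 3 patterns of calls.

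Fbxo27 and Fbxo17 form a second pair of this group, 17465 bases apart on chromosome 7. Fbxo27 fell in KI, from 1.42 ± 0.399 CPM in WT to 0.583 ± 0.267 (log2 fold change -1.27 ± 0.33, adjusted p = 0.00552), and measured 1.01 ± 0.418 CPM in KO (adjusted p = 0.281). Without KI 4 the fall in KI was 1.52 on the log2 scale. Fbxo17 measured 0.587 ± 0.25, 0.379 ± 0.132 and 0.568 ± 0.259 CPM and was not called.

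Other F-box genes that fell, named here after their values were seen, were Fbxo33, Fbxl15 and Fbxw18. Fbxo33, which is known to target the Y-box protein YB-1, fell from 51.3 ± 13.7 CPM in WT to 33.7 ± 5.08 CPM in KO and 37.2 ± 9.06 CPM in KI (with adjusted p = 0.0146 and 0.0569, the latter 0.0659 without KI 4). Fbxl15, known for acting on a ligase of BMP signalling, measured 3.41 ± 0.988, 2.31 ± 0.450 and 2.39 ± 0.526 CPM (adjusted p = 0.0486 and 0.0673, the latter 0.0330 without KI 4). The libraries of both genes overlapped between the genotypes, and with the close libraries summed neither was called (Fbxo33 0.107 in KO and 0.27 in KI, Fbxl15 0.153 and 0.201). Fbxl13, whose product belongs to the dynein regulatory complex of the sperm tail, was lower in KI (155 ± 20.2 CPM in WT, 115 ± 19.6 in KI, log2 fold change -0.43 ± 0.16, adjusted p = 0.0620) and measured 129 ± 34.7 CPM in KO (adjusted p = 0.287). Leaving out WT 1, WT 2, WT 3, KI 3 or KI 5 ended that call (adjusted p 0.116 to 0.137), which held without KI 4 (0.0892). Klhl41, a muscle gene named after its value was seen, was lower in KI at 7.92 ± 0.534 CPM against 10.6 ± 2.93 in WT (adjusted p = 0.0529, and 0.0703 without KI 4). Neither Fbxl13 nor Klhl41 was called with the close libraries summed (0.429 and 0.347). The late spermatid markers given above fell in the same libraries, and their part in these falls was not tested.

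Among the members that rose in both mutants, Fbxw7 had the highest level in WT. Its product directs cyclin E, MYC and NOTCH to degradation. It measured 40.5, 47.3 and 54.1 CPM at the lowest, median and highest in WT, 58.9, 65.7 and 90.7 CPM in KO, and 62.5, 69.0 and 83.3 CPM in KI. All 12 mutant libraries lay above all WT libraries. The log2 fold change was 0.56 ± 0.12 in KO (adjusted p = 0.00147) and 0.60 ± 0.12 in KI (adjusted p = 0.000662, and 0.00119 without KI 4). Fbxo11, known for the degradation of BCL6, measured 16.6, 19.1 and 21.1 CPM in WT, 27.1, 28.9 and 41.2 CPM in KO, and 24.6, 27.5 and 31.5 CPM in KI. It too was separate from WT in every library, with KO 1 the highest. Its log2 fold change was 0.69 ± 0.11 in KO (adjusted p = 0.000125) and 0.53 ± 0.11 in KI (adjusted p = 0.00151, and 0.0035 without KI 4). Fbxo42, which acts on p53, rose from 19 ± 3.23 CPM to 29.5 ± 3.33 in KO and 31.5 ± 7.90 in KI (log2 fold change 0.64 ± 0.15 and 0.73 ± 0.15, adjusted p = 0.00379 and 0.00104, the latter 0.00299 without KI 4), again without overlap.

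Kelch-like genes were among those that rose. KLHL9, KLHL13 and KLHL21 act in CUL3 ligases on Aurora B during division of somatic cells. Klhl9 measured 10.9, 13.6 and 16.2 CPM at the lowest, median and highest in WT, 17.3, 21.4 and 25.0 CPM in KO, and 16.8, 20.3 and 25.1 CPM in KI. No mutant library fell within the WT range. Its log2 fold change was 0.67 ± 0.12 in KO (adjusted p = 0.000415) and 0.57 ± 0.12 in KI (adjusted p = 0.00165; 0.00529 without KI 4; 0.108 with the close libraries summed and KI 4 left out). Klhl21 rose in KI from 15.1 ± 1.85 to 21.3 ± 3.95 CPM (adjusted p = 0.0103, and 0.0143 without KI 4) and measured 18.2 ± 3.12 CPM in KO (adjusted p = 0.166). Klhl3, an adaptor for WNK kinases that control salt transport in the kidney, rose from 10.8 ± 0.804 CPM to 16.2 ± 2.97 in KO and 16.1 ± 2.39 in KI (adjusted p = 0.00212 in each, and 0.00669 in KI without KI 4). Klhl25 and Klhl18 were also higher in both, at 23.6 and 15.4 CPM in WT, 33.2 and 19 in KO, and 36.5 and 20.8 in KI (adjusted p = 0.00928 and 0.00789 in KI without KI 4). With the close libraries summed, Klhl3 was still called in KO (0.0565) but not in KI (0.126), Klhl21 was not called in KI (0.179), and Klhl25 and Klhl18 were called in neither mutant. Klhl21, Klhl3, Klhl25 and Klhl18 were named after their values were seen.

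Further F-box genes with higher levels in both mutants, named after their values were seen, were Fbxo3, Fbxw8 and Fbxl20. Fbxo3 rose from 32.1 ± 5.21 CPM to 46.3 ± 4.52 CPM in KO and 46.5 ± 4.95 CPM in KI (adjusted p = 0.00178 and 0.00147, the latter 0.00395 without KI 4). Fbxw8, which works with the scaffold CUL7, rose from 13.4 ± 1.64 CPM to 19.3 ± 0.877 and 19.2 ± 4.29 (adjusted p = 0.00528 and 0.00508, the latter 0.0133 without KI 4). Fbxl20, known from synapses, rose from 14.7 ± 1.05 CPM to 18.1 ± 1.56 and 19.7 ± 2.48 (adjusted p = 0.0429 and 0.00485, the latter 0.00196 without KI 4). With the close libraries summed, the calls of Fbxl20 in KO (0.230) and of Fbxw8 in KI (0.122) ended. Within the 3 genes, only Fbxo3 and Fbxw8 in KO had no library in the WT range.

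The largest fold changes belonged to genes with very few reads. The filter on low counts asked for enough reads in as many libraries as 1 genotype has. Klhl13, Fbxl7 and Fbxw20 met it through mutant libraries only, since no WT library reached its level, and Fbxl21 met it mainly through them. The markers Cnn1 and Lhcgr also met it through mutant libraries only. Among such scarce genes the filter therefore favoured rises. Fbxl21 encodes an F-box protein that binds the cryptochromes of the circadian clock. Fbxl21 measured 0.106, 0.161 and 0.582 CPM at the lowest, median and highest in WT, 0.721, 0.820 and 1.35 CPM in KO, and 0.574, 1.01 and 1.74 CPM in KI. Its WT libraries held 2 to 12 counts, and 3 of the 6 were at or under the floor of 3 counts. KO did not overlap WT, and KI touched it in 1 library. The log2 fold change was 1.93 ± 0.39 in KO (adjusted p = 0.000641) and 2.02 ± 0.39 in KI (adjusted p = 0.000351; 1.81 without KI 4, which was the highest library).

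Klhl13 rose from 0.198 ± 0.0979 CPM to 0.768 ± 0.547 in KO and 0.797 ± 0.398 in KI (log2 fold change 1.94 ± 0.51 and 1.96 ± 0.51, adjusted p = 0.00544 and 0.00447, the latter 0.0141 without KI 4), with 1 to 8 counts per WT library. KI did not overlap WT, and KO did. Fbxl7, which acts on Aurora A, rose from 0.278 ± 0.0378 CPM to 0.586 ± 0.214 in KO (adjusted p = 0.0129) and 0.504 ± 0.166 in KI (adjusted p = 0.0481, and 0.114 without KI 4). Klhl26 rose from 0.898 ± 0.223 CPM to 1.64 ± 0.27 in KO (adjusted p = 0.00831) and measured 1.35 ± 0.403 in KI (adjusted p = 0.0757, and 0.130 without KI 4). The KI call of Fbxl7 ended also without KI 1 (highest adjusted p 0.114), and that of Klhl26 without KI 1, KI 5, KI 6, WT 1, WT 4 or WT 5 (adjusted p 0.101 to 0.180). Both kept it without each of the other libraries. The muscle genes Fbxo32 (atrogin-1) and Fbxo40, named after their values were seen, were higher in KO alone, from 0.379 ± 0.179 to 0.829 ± 0.299 CPM and from 0.554 ± 0.222 to 1.02 ± 0.284 CPM (adjusted p = 0.0347 and 0.0686, but 0.108 and 0.124 with the close libraries summed). The Leydig cell markers rose in the same libraries by a median log2 fold change of 1.94 in KO and 1.78 in KI. Of the smooth muscle genes, Cnn1 and Acta2 were higher in KO and Myh11 was lower in both mutants, as given above. The peritubular markers summed to a median of 4.12 CPM in WT, 3.78 CPM in KO and 2.86 CPM in KI. The part of Leydig or smooth muscle cells in the rise of these scarce transcripts was not tested.

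Calls in 1 mutant alone, apart from those above, were Fbxl14, Fbxo10 and Fbxo47 in KO and Fbxl18 and Fbxl19 in KI, all of them higher and none called with the close libraries summed. Fbxo47, a gene of meiosis, measured 11 ± 1.87 CPM in WT and 14.6 ± 2.52 in KO (log2 fold change 0.41 ± 0.15, adjusted p = 0.0595), and leaving out KO 2, KO 4, WT 1, WT 2 or WT 5 ended this call (adjusted p 0.106 to 0.135). Fbxl19, whose product binds CpG islands, measured 21.6 ± 2.68 CPM in WT and 21.5 ± 1.33 CPM in KO, with 26.7 ± 3.73 CPM in KI (adjusted p = 0.986 and 0.0503). KI 4, at 19.5 CPM, was the lowest KI library of this gene, and without it the adjusted p in KI was 0.00925. Without KI 4, Fbxo43 was also called higher in KI, and Fbxo39, Fbxo46 and Klhl23 lower.

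Many adaptors known from germ cells, the cell cycle or the highest levels in WT did not pass the test. Fbxo24, a gene of sperm formation, measured 59.0 ± 10.8, 61.1 ± 9.64 and 54.1 ± 8.72 CPM in WT, KO and KI. The APC/C inhibitors Fbxo5 (EMI1) and Fbxo43 (EMI2) measured 0.998 ± 0.205, 1.42 ± 0.377 and 1.16 ± 0.555 CPM, and 42.1 ± 7.98, 51.1 ± 8.78 and 56.5 ± 21.6 CPM. Fbxo43 spread most in KI, where its libraries ran from 35.8 to 84.8 CPM. Fbxo39 measured 53.4 ± 8.95, 48.8 ± 12.1 and 44.0 ± 8.32 CPM, and Fbxo15, a gene of pluripotent cells, 7.68 ± 1.57, 9.94 ± 1.13 and 7.88 ± 2.42 CPM. Fbxo7, which binds the proteasome regulator PI31, measured 19.9 ± 1.85, 23.5 ± 1.65 and 22.5 ± 2.81 CPM, with an adjusted p of 0.102 in KO, just outside the threshold. Fbxl5, the iron sensor that acts on IRP2, measured 94.0 ± 18.4, 79.6 ± 5.06 and 77.6 ± 14.3 CPM, and Fbxl2 1.52 ± 0.470, 1.55 ± 0.324 and 1.39 ± 0.339 CPM. Fbxw11, a paralog of beta-TrCP, measured 10.3 ± 1.02, 10.3 ± 1.40 and 11.3 ± 0.479 CPM.

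The most abundant members below Klhl10 likewise had overlapping genotypes. Fbxw5 measured 218 ± 7.22, 223 ± 28.5 and 225 ± 48.9 CPM in WT, KO and KI. Its SD in KO was 10.5 CPM without KO 6, and the highest KI libraries were the close pair KI 1 and KI 2, without which the KI SD was 13.4 CPM. Fbxo30 measured 312 ± 26.8, 253 ± 41.2 and 263 ± 53.1 CPM (adjusted p = 0.137 and 0.228), and Fbxo36 95.5 ± 7.07, 79.8 ± 18.9 and 79.1 ± 16.6 CPM. Fbxo34 measured 105 ± 15.2, 110 ± 9.86 and 110 ± 17.7 CPM, and Fbxo38 105 ± 5.09, 122 ± 19 and 124 ± 28.0 CPM. Fbxw10 varied most within WT, from 92.2 to 263 CPM, and its means of 169, 171 and 159 CPM differed by less than that spread. These values do not show that the genes were unaffected, only that no change was detected with these libraries.

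In KI against KO, 0 of the 91 members passed the test by edgeR or DESeq2, where 0.0997% of all genes did (lowest adjusted p 0.917). At an unadjusted p under 0.05 there were 3 members. They were Fbxl19 (log2 fold change 0.31 ± 0.11 in KI against KO), Fbxo27 (-0.78 ± 0.33) and Klhl2 (-0.47 ± 0.20). Without KI 4 again 0 of 92 were called (9 at an unadjusted p under 0.05, lowest adjusted p 0.150), where 0.522% of all genes were. Across the members the difference between the mutants ran from -0.78 to 0.59 on the log2 scale. For Klhl10 it was -0.16 ± 0.22, and for Fbxw7 0.04 ± 0.12.

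Position split the Fbxw family. On chromosome 9, 15 Fbxw genes, all on the minus strand, lie together at chr9:109139447-109790670, a mouse cluster of related copies in which reads of similar genes may be shared or lost. Of these, 5 passed the filter on low counts and the other 10 reached at most 10 counts, whereas all 9 Fbxw genes elsewhere passed it. Within the cluster, Fbxw27 had the highest level, with WT at 9.14 ± 0.889 CPM, KO at 8.16 ± 1.51 CPM and KI at 9.15 ± 2.42 CPM, and was not called. Fbxw20 rose from 0.164 ± 0.144 CPM to 0.747 ± 0.218 in KO and 0.581 ± 0.289 in KI (log2 fold change 2.17 ± 0.47 and 1.79 ± 0.47, adjusted p = 0.000805 and 0.00462, the latter 0.0151 without KI 4), with 1 to 9 counts in WT. As given above, it passed the filter on low counts through mutant libraries only. Fbxw18 fell from 1.63 ± 0.402 CPM to 0.911 ± 0.382 and 0.936 ± 0.346 (adjusted p = 0.0408 and 0.0465; in KI 0.0952 without KI 4 and 0.356 with the close libraries summed). The cluster thus held a gene that rose and a gene that fell. Fbxw15 (0.491 ± 0.623, 1.09 ± 0.406 and 0.918 ± 0.410 CPM) and Fbxw26 (0.718 ± 0.117, 0.737 ± 0.289 and 0.740 ± 0.336 CPM) did not pass the test.

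**Figure D4:**
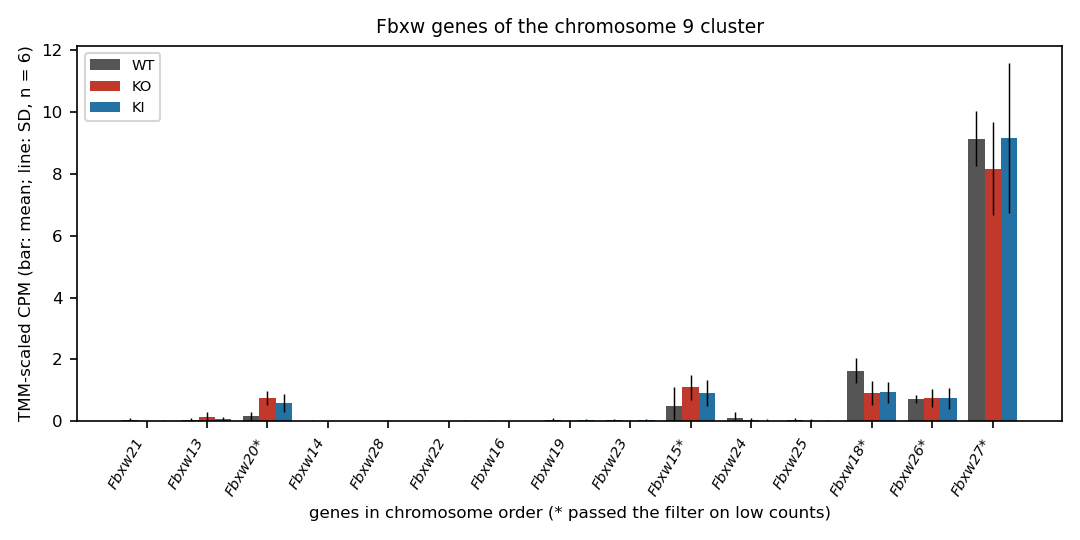
Mean CPM and SD (n = 6) of the 15 Fbxw genes of the chromosome 9 cluster, in chromosome order, in WT, KO and KI; asterisks mark the 5 genes that passed the filter on low counts. Fbxw27 stands at 9.14 CPM in WT, and 10 of the genes lie near 0.

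The rest of the ligase pathway was described with lists of scaffold subunits, of neddylation and exchange factors, and of adaptors of the same domains under other symbols. Of 14 scaffold genes tested, 3 were higher and 1 lower in KO, and 3 were higher and 4 lower in KI (3 and 3 without KI 4). Over all genes tested, 16.4% were higher and 13.5% lower in KO, and 16.1% and 15.4% in KI (14.5% and 15.8% without KI 4). The counts of the other lists below stand beside the same shares, and no list was tested against them. With close libraries summed and KI 4 left out, 4 pathway genes were higher and 3 lower in KO (2 and 2 in KI). With all libraries these were 10 and 7 in KO (10 and 11 in KI). The calls of single pathway genes below are those with all libraries, and not all held with close libraries summed. Cul1, the scaffold of the F-box adaptors, rose from 96.5 ± 12.7 CPM to 136 ± 25.1 in KO (log2 fold change 0.49 ± 0.14, adjusted p = 0.0110) and 126 ± 17.7 in KI (0.38 ± 0.14, adjusted p = 0.0442, and 0.0856 without KI 4). Cul3, the scaffold of the Kelch-like adaptors, measured 344 ± 75.5 CPM in WT, 275 ± 128 in KO (adjusted p = 0.403) and 222 ± 68.7 in KI (log2 fold change -0.63 ± 0.25, adjusted p = 0.0675, and 0.119 without KI 4). Rbx1, a RING subunit, rose from 11.1 ± 1.98 CPM to 16.3 ± 2.08 and 16.2 ± 2.7 (adjusted p = 0.00539 and 0.00554, the latter 0.0175 without KI 4). Rnf7, another RING gene of this list, was named after its values were seen. It fell from 86.3 ± 20.4 CPM in WT to 64.4 ± 7.37 in KO and 62.1 ± 18.2 in KI, with overlapping libraries. Both falls were called (adjusted p = 0.0934 and 0.0557, the latter 0.0641 without KI 4). Its WT level was 65.0 RPKM, beside 2.45 RPKM for Rbx1. The linker Skp1a measured 251 ± 66.2, 205 ± 24.9 and 202 ± 63.9 CPM and was not called. The largest called change among the scaffold genes in KO was that of Cul7 (log2 fold change 0.64 ± 0.26, adjusted p = 0.0797), which was not called in KI (0.19 ± 0.26, adjusted p = 0.655).

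Neddylation, the attachment of NEDD8 that switches cullins on, was represented by 23 genes with their exchange factors and the COP9 signalosome. Of these, 1 was higher and 4 lower in KO, and 1 was higher and 5 lower in KI (1 and 4 without KI 4). Dcun1d1, a co-ligase that helps NEDD8 onto cullins, fell from 448 ± 49.6 CPM in WT to 140 ± 38.1 in KO and 124 ± 15 in KI. The log2 fold change was -1.68 ± 0.16 (adjusted p = 1.11e-07) and -1.85 ± 0.16 (adjusted p = 2.33e-08, and 1.59e-07 without KI 4), larger than that of any Kelch-like or F-box member that fell. It also passed the test for more than 1 log2 unit (adjusted p = 0.0148 and 0.00142). Its relatives Dcun1d3 and Dcun1d4 and the NEDD8-conjugating enzyme Ube2f, named after their values were seen, were lower in both mutants. Its relatives Dcun1d2 and Dcun1d5 and another conjugating enzyme of this list, Ube2m, also named after their values were seen, were called in neither. Their log2 fold changes in KO and KI were 0.054 and 0.030 for Dcun1d2, -0.242 and -0.229 for Dcun1d5, and 0.095 and -0.096 for Ube2m.

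Of the 20 other adaptors, 6 were higher and 2 lower in each mutant, with or without KI 4. Skp2, the F-box protein that directs p27 to degradation and would be named an Fbxl gene by its repeats, fell from 120 ± 14.1 CPM to 48.0 ± 9.39 in KO and 43.4 ± 8.70 in KI (log2 fold change -1.32 ± 0.14 and -1.46 ± 0.14, adjusted p = 6.48e-07 and 1.18e-07, the latter 4.02e-08 without KI 4). It passed the glmTreat test for more than 1 log2 unit in KI (adjusted p = 0.0975) but not in KO (0.680). Kbtbd7, a CUL3 adaptor, was higher in both (12.5 ± 1.23, 19.8 ± 4.09 and 17.8 ± 4.35 CPM in WT, KO and KI, adjusted p = 0.00249 and 0.0149, the latter 0.0492 without KI 4). Ccnf, the F-box protein cyclin F, and Kdm2b, a histone demethylase with an F-box, also rose in both, and Btrc (beta-TrCP), at 205 ± 26.8, 208 ± 25.9 and 224 ± 13.2 CPM, was not called. Kbtbd7, Ccnf, Kdm2b and Btrc were named after their values were seen.

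**Figure D5:**
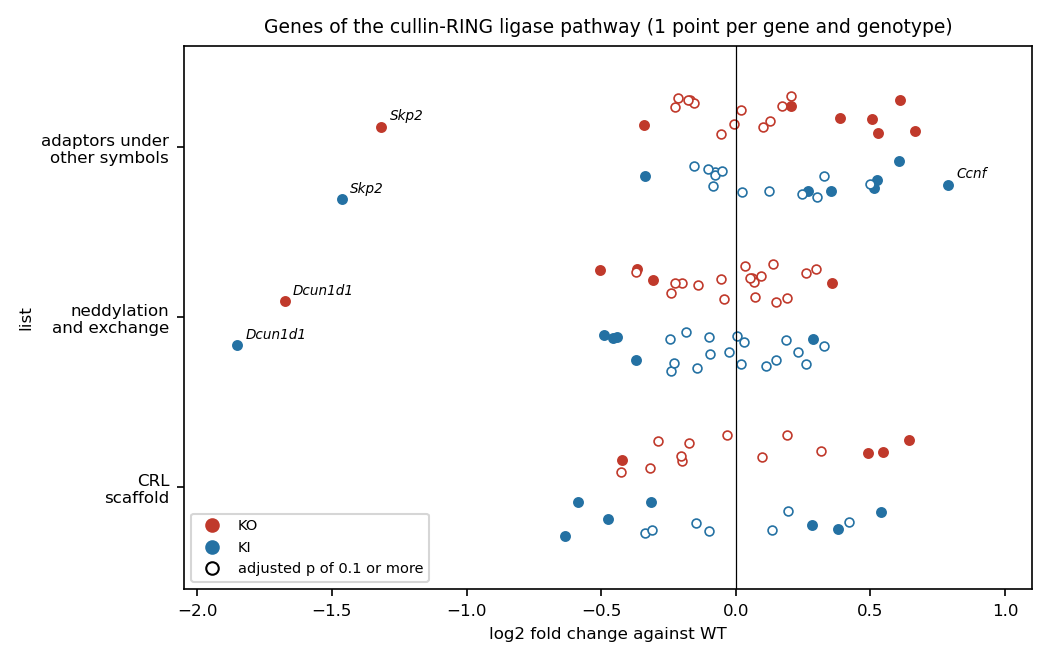
Log2 fold changes against WT of the pathway genes tested in 3 lists, 1 point per gene and genotype; filled points have an adjusted p under 0.1 and vertical spread within a list has no meaning. Dcun1d1 (-1.68 in KO, -1.85 in KI) and Skp2 (-1.32, -1.46) lie farthest from 0.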

How the data were processed

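Round spermatid RNA of 6 WT, 6 KO and 6 KI libraries (18 in all, no poly(A) selection) was measured as strand-specific read counts per gene. Per the labels and the study's methods, cutadapt 3.4 was used by the authors for trimming, STAR 2.7.8a for alignment (GRCm38) and featureCounts (Subread 2.0.1) for counting, and the deposited table holds raw counts, not normalized. Each column matched 1 labelled library. Symbols came from GENCODE M21 (54079 of 54232 identifiers), promoters from RefSeq GRCm38.p6.

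Counts were fitted here with edgeR 4.0.16 (R 4.3.3; filterByExpr, TMM, quasi-likelihood test, genotype as the only term, all libraries, 21058 genes), with Benjamini-Hochberg adjusted p under 0.1 as the threshold; glmTreat tested for more than 1 log2 unit. The fit was tested on simulated data. CPM are TMM-scaled; RPKM divide these by gene length. ± is SD for levels and SE for log2 fold changes. Values of 3 counts or fewer were treated as the floor, and the floor covers counting error only.

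The text named members past 1 log2 unit, the 5 largest rises and falls per mutant among called members without overlap, the 10 highest in WT, and members with textbook roles in germ cells, the cell cycle or the clock; of the pathway lists it named Cul1, Cul3, Skp1a, Rbx1 and the largest called change of each. Most others are marked where named. Fbxw20, Fbxw15, Fbxw26, Fbxw27, Klhl11, Klhl2, Klhl23, Fbxl14, Fbxl18, Fbxl19, Fbxo10 and Fbxo46 were also named outside these rules, after their values were seen. 1 member is counted but not reported here by name. The members and lists were chosen with earlier results of these data known. Alternatives were DESeq2 1.42.0, DESeq2 size factors, other filters, only the genotypes compared, a replicate block, summed close libraries and each library left out in turn. Replicate numbers were not used as pairs, since nothing in the labels ties libraries of the same number.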

Additional observations from a re-analysis of the deposited data

Results flagged for a closer look

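In 93 groups of 6 libraries (31 members in 3 genotypes), 3 libraries stood apart from the other 5 of their genotype by Dixon's criterion, which flags about 1 group in 20 by chance. Fbxo11 measured 41.2 CPM in KO 1, with the other KO libraries between 27.1 and 31.0 CPM. Fbxo34 measured 128 CPM in KO 2, with the others between 103 and 112 CPM. Fbxw5 measured 278 CPM in KO 6, with the others between 201 and 222 CPM. All 3 lay above the rest, each in a different library.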

How the results depend on the processing

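With the close libraries summed and KI 4 left out, fewer members passed the test, 17 in KO and 13 in KI in place of 30 and 29, and 7 and 4 pathway genes in place of 17 and 21; this setting has fewer libraries. Pathway genes in KO numbered 11 without a filter on low counts and 11 at a threshold of 0.05 (pathway alternatives were chosen after seeing the data). Leaving out each library in turn gave 28 to 35 members in KO and 23 to 32 in KI, 0 to 2 and 0 to 1 past 1 log2 unit, 0 to 0 in KI against KO, and 12 to 17 and 17 to 25 pathway genes. All other settings kept these counts within 1.5 times. With the replicate block, 32 members were called in KO, 29 in KI and 0 in KI against KO; replicate numbers did not pair the libraries (18 correlations, -0.44 to 0.48, 7 over 0.1).

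Of 62 values of named members, 28 were called, and 19 of these kept the call under each alternative that gave a value (56 of the 62 had one with at least 10 counts in every library, 59 with only the genotypes compared). Some uncalled values gained a call under at least 1 alternative. They were Fbxo5, Fbxo7, Fbxo15 and Fbxo30 in KO, and Fbxl5, Fbxo7, Fbxo39 and Fbxo43 in KI. For Fbxo7 in KO, leaving out any of 5 libraries gave a call (lowest adjusted p 0.0616). No called value changed sign. Uncalled values near 0 did, over the libraries left out in turn, as log2 fold changes: Fbxl2 from -0.058 to 0.17 in KO and -0.20 to 0.0043 in KI, Fbxo15 from -0.11 to 0.17 in KI, Fbxo24 from -0.019 to 0.11 in KO, Fbxo5 from -0.061 to 0.39 in KI, Fbxw10 from -0.24 to 0.19 in KO and -0.21 to 0.082 in KI, Fbxw11 from -0.074 to 0.040 in KO, and Fbxw5 from -0.040 to 0.062 in KO and -0.046 to 0.10 in KI. By setting, Fbxl2 in KO was -0.00097 by DESeq2 and -0.011 without a filter. Fbxw10 in KO was -0.00032 by DESeq2, -0.0016 with its size factors, -0.013 without a filter and -0.017 with close libraries summed. Close libraries summed gave -0.13 for Fbxo15 in KI, 0.077 for Fbxw10 in KI and 0.0029 for Fbxw11 in KO, the last 0.0069 with only the genotypes compared. Fbxw5 in KO was -0.0017 without a filter. For these sign changes the cause was not tested. The filter on low counts left out 24 of 115 members; without it 114 were tested.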
